A study of Mus musculus with 36 samples.

Results

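The expression of 10 genes of de novo lipogenesis, the pathway that builds fatty acids from acetyl units, was followed across RNA-seq libraries of epididymal white adipose tissue (eWAT). They are *Acly*, *Acss2*, *Me1*, *Acaca*, *Fasn*, *Elovl6*, *Scd1*, *Srebf1*, *Mlxipl* and *Thrsp*, listed by their role in the pathway. Each symbol was matched through its Ensembl ID to one row of the deposited table, so 10 of 24750 genes were members, and all 10 passed the filter on low values. The libraries came from 36 male mice, 3 in each of 12 groups. The mice were WT C57BL/6 or CCL19-KI, a homozygous line in which *Ccl19*, encoding a chemokine, had been inserted into the adipocyte locus *Adipoq* by CRISPR, and the WT mice were bred separately. They were fed a normal diet (ND), a 40% high-fat diet (40% HFD) or a 60% HFD for 10 weeks in all. In 6 of the groups the mice had a ligature for the last 2 weeks, placed at 14 weeks of age to induce periodontitis (LIP), and the labels of the other groups name no ligature. The question put to these genes was whether their expression in eWAT differed with diet first, and then with genotype and ligature.

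In the cytosol, ATP citrate lyase (*Acly*) and the acetyl-CoA synthetase *Acss2* supply acetyl-CoA from citrate and acetate, malic enzyme (*Me1*) supplies NADPH, acetyl-CoA carboxylase (*Acaca*) makes malonyl-CoA, and fatty acid synthase (*Fasn*) joins these units into palmitate. *Elovl6* lengthens palmitate, *Scd1* introduces a double bond, and the insulin- and glucose-responsive factors SREBP-1 (*Srebf1*) and ChREBP (*Mlxipl*) are known to drive most of these genes, while *Thrsp* (Spot 14) is a lipogenic target of the same signals. White adipose tissue and liver are both known to use this pathway, so hepatocyte RNA in an adipose sample would also carry its transcripts.

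Values are read counts scaled to library size with edgeR (normalized CPM), and 1 read was worth 0.0472 to 0.0834 normalized CPM at a depth of 11962228 to 21581595 reads per library. Adipocyte markers were abundant in every library, with *Adipoq* at 300 normalized CPM or more. *Adipoq*, the locus of the insertion, had a median of 584 in libraries labelled CCL19-KI and 2354 in those labelled WT, leaving out the 2 libraries described below. The mean log2(normalized CPM + 1) of 12 other adipocyte genes ran from 8.74 to 11.3. Hepatocyte markers varied far more. Their score, the mean log2(normalized CPM + 1) of 14 genes, ran from 1.28 to 10.7, and *Alb*, encoding albumin, from 5.55 to 26901 normalized CPM. The score was 1.28 to 1.58 in WT mice without ligature fed an ND, 4.95 to 10.6 in the corresponding CCL19-KI mice, and had medians of 5.40, 9.16 and 9.12 under the ND, 40% HFD and 60% HFD. Of the 14 hepatocyte genes, 12 were significantly higher under either HFD than under the ND. *Ccl19* was 5.57 to 34.6 normalized CPM in 17 of the 18 libraries labelled CCL19-KI and 0.51 to 4.51 in 17 of the 18 labelled WT. The library labelled CCL19-KI, 60% HFD without ligature 3 had 0.69, and the library labelled WT, ND without ligature 2 had 19.2, so these 2 libraries went against their labels. Each result is given as labelled, and without both libraries where that changed which members were called. In bulk tissue, fewer cells of a type and less RNA per cell cannot be told apart.

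**Figure D1:**
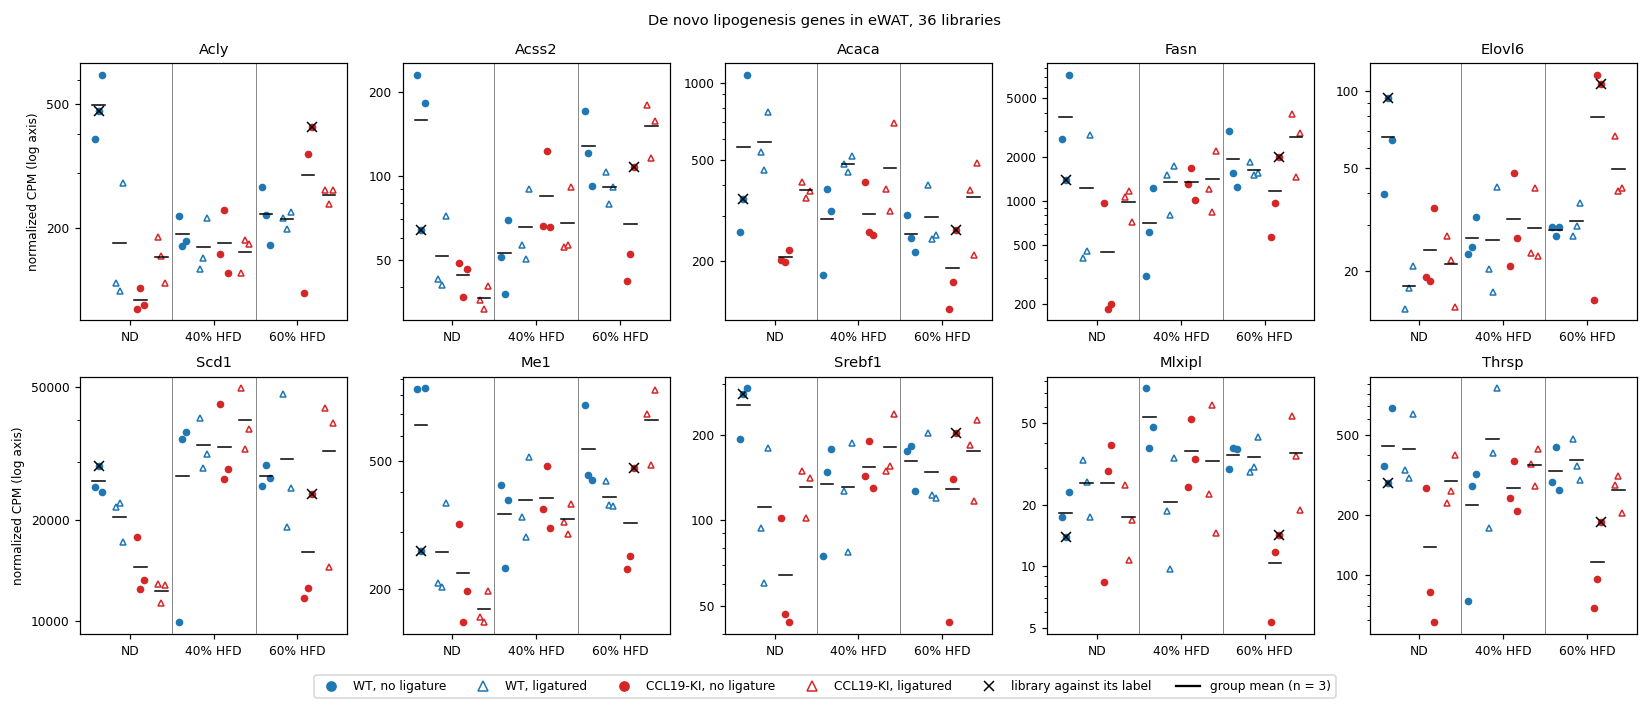
Each panel shows 1 gene in the 36 libraries, with normalized CPM on a log axis, diets along the horizontal axis and symbols for genotype and ligature as in the legend. *Scd1* stands between 9927 and 49701 normalized CPM and *Elovl6* and *Mlxipl* below 116, and in every panel the libraries of the 3 diets overlap.

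Per kilobase of exon, *Scd1* was the most abundant member by far, with a median level of 5170 normalized CPM per kb. It alone held 0.822 to 5.10% of the reads of a library. *Thrsp* (133 per kb), *Fasn* (117) and *Me1* (93.1) formed the next tier of levels per kb, followed by *Acly* (35.1), *Srebf1* (25.9) and *Acaca* (19.5). *Acss2* (6.49), *Mlxipl* (4.94) and *Elovl6* (4.24) were lowest, on the same per-kb scale. Reads of close relatives, such as *Scd2* beside *Scd1* and *Acacb* beside *Acaca*, can be split by the counting, and the alternative starts of *Srebf1* and *Mlxipl* were not resolved at gene level. Libraries of the same group differed widely, most for *Fasn*, whose within-group SD was 0.89 on the log2 scale, and least for *Acly* (0.40). When the 12 groups were put in order of their means, most neighbouring groups overlapped, 11 of 11 neighbours for 7 genes and 10 of 11 for *Acly*, *Scd1* and *Me1*.

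Diet was compared first, as the mean of the 4 differences between 60% HFD and ND within genotype and ligature state (limma, adjusted over all 17852 genes tested). Of the 10 genes, *Acss2* and *Me1* were significantly higher under the 60% HFD and 0 were significantly lower. Among all genes, 10.2% were significantly higher and 8.40% lower. The median log2 fold change was 0.39 over the 10 genes, 8 of them positive, and 0.01 over all genes.

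Among the genes that supply acetyl-CoA and NADPH, *Acss2* ranged from 33.3 to 231 normalized CPM under the ND with a median of 44.4, from 37.6 to 123 with a median of 61.0 under the 40% HFD, and from 41.8 to 181 with a median of 105 under the 60% HFD (n = 12 each). The upper end of the ND range came from WT mice without ligature (231, 64.0 and 183), and the other 9 ND libraries were at 71.9 or below. The log2 fold change of *Acss2* was 0.80 (SE 0.19, limma adjusted p = 0.00649). *Me1* had medians of 206, 344 and 445 normalized CPM in the same order of diets, with ranges of 158 to 842, 233 to 514 and 232 to 830. The highest ND values, 842 and 839, were again from WT mice without ligature, and the next was 370. The log2 fold change of *Me1* was 0.73 (SE 0.19, limma adjusted p = 0.0089). Without the 2 libraries against their labels, the values were 0.56 for *Acss2* (limma adjusted p = 0.0172) and 0.51 for *Me1* (0.0255), where 15.0% of all genes were significant in either direction. With the hepatocyte score as a covariate, they were 0.91 (limma adjusted p = 0.0105) and 0.93 (0.00617). With the 9 libraries with a hepatocyte score over 10 left out, neither call held (limma adjusted p = 0.051 and 0.073), at log2 fold changes of 0.87 and 0.73. *Acly* had medians of 148, 176 and 233 normalized CPM under the ND, 40% HFD and 60% HFD, with a log2 fold change of 0.26 between 60% HFD and ND (SE 0.16, limma adjusted p = 0.242).

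The point estimates of the synthesis enzymes *Fasn* and *Acaca* had opposite signs, and neither passed the main test. *Fasn* ranged from 186 to 7229 normalized CPM under the ND (median 1021), from 310 to 2203 under the 40% HFD (median 1217) and from 574 to 3891 under the 60% HFD (median 1552). The ND libraries thus held both the lowest and the highest value of the series, and the log2 fold change of 0.82 between 60% HFD and ND did not pass the test (SE 0.35, limma adjusted p = 0.0915). It was 1.30 and passed with the hepatocyte score as a covariate (limma adjusted p = 0.0277). *Acaca* had medians of 366, 385 and 250 normalized CPM, with a log2 fold change of -0.55 (SE 0.20, limma adjusted p = 0.0517), and -0.67 without the 2 libraries against their labels (limma adjusted p = 0.0301). It was -0.33 with the hepatocyte score as a covariate (limma adjusted p = 0.373).

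For *Elovl6*, the medians were 21.4, 24.0 and 33.2 normalized CPM under the ND, 40% HFD and 60% HFD, and the log2 fold change between 60% HFD and ND was 0.56 (SE 0.25, limma adjusted p = 0.109). *Scd1*, unlike *Acss2* and *Me1*, had its highest median under the 40% HFD. It ranged from 11301 to 29027 normalized CPM under the ND (median 17554), from 9927 to 49701 under the 40% HFD (median 33810) and from 11721 to 47694 under the 60% HFD (median 25161). Except for the library at 9927, those under the 40% HFD stood at 26621 or more, whereas 11 of the 12 ND libraries stood at 25198 or less. *Scd1* was the only member significantly higher under the 40% HFD than under the ND, with a log2 fold change of 0.85 (SE 0.24, limma adjusted p = 0.0284), where 5.36% of all genes were significantly higher and 3.85% lower. It stayed significant without the 2 libraries against their labels (0.87, limma adjusted p = 0.0321), but not with the hepatocyte score as a covariate (1.07, limma adjusted p = 0.0585) or when any of 3 single libraries was left out. The other 9 genes had log2 fold changes between -0.17 and 0.61 in this comparison, and the median over the 10 was 0.18 against -0.02 over all genes. Both comparisons use the same ND libraries.

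The regulators and *Thrsp* did not pass the test in either comparison with the ND. *Srebf1* had medians of 121, 149 and 158 normalized CPM under the ND, 40% HFD and 60% HFD, and log2 fold changes of 0.27 (40% HFD) and 0.28 (60% HFD) against the ND, each with an SE of 0.23. *Mlxipl* had medians of 20.2, 33.6 and 30.2 and log2 fold changes of 0.61 and 0.31 (SE 0.26). Both changes of *Mlxipl* took the other sign when the hepatocyte score was a covariate (-0.22 and -0.33). *Thrsp* was nearly level by its medians (298, 300 and 286 normalized CPM), with log2 fold changes of 0.09 and -0.16 (SE 0.28).

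Between the 2 HFDs, 0 of the 10 genes were significant by limma, where 0.745% of all genes were, edgeR called 0 and DESeq2 called *Acss2*. An unadjusted p under 0.05 was found for 4 (*Acaca*, *Acly*, *Acss2* and *Elovl6*) and for 2356 of all 17852 genes. *Acss2* was 0.64 higher under the 60% HFD on the log2 scale (SE 0.19, limma adjusted p = 0.109), and *Scd1* was 0.39 lower by its point estimate, written as a log2 fold change of -0.39 (SE 0.24, limma adjusted p = 0.505).

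**Figure D2:**
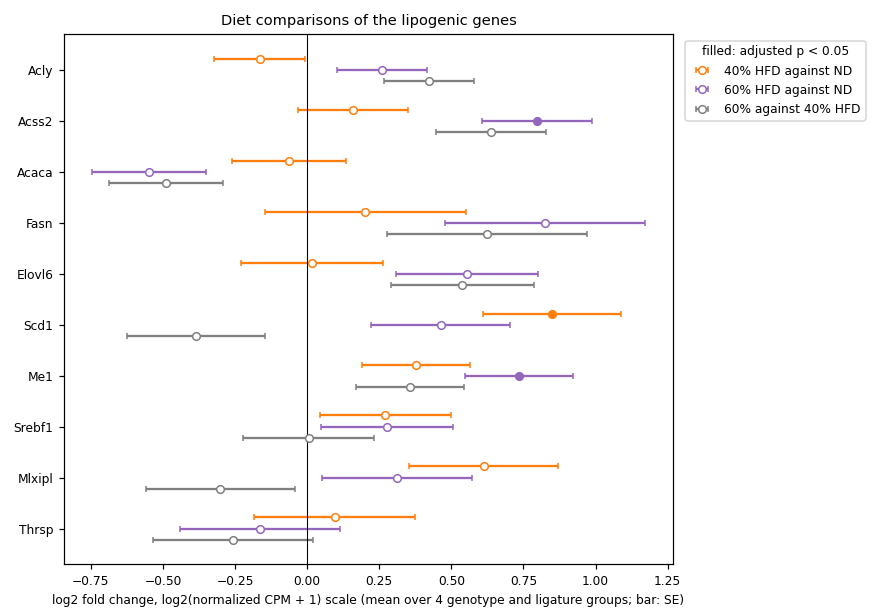
Log2 fold changes of the 10 genes in the diet comparisons, averaged over the 4 combinations of genotype and ligature, on the log2(normalized CPM + 1) scale with bars for the SE, and with filled points for an adjusted p under 0.05. Filled points are *Acss2* (0.80) and *Me1* (0.73) for 60% HFD against ND and *Scd1* (0.85) for 40% HFD against ND.

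Diet was then compared within each genotype and ligature state, 3 libraries against 3. In ligatured CCL19-KI mice, *Acss2* was 35.7, 33.3 and 40.3 normalized CPM under the ND and 181, 116 and 157 under the 60% HFD. *Me1* was 164, 158 and 197 under the ND and 702, 487 and 830 under the 60% HFD in the same mice. Neither gene overlapped between these groups, though the share of all genes without such overlap is not given, here or for the groups compared below. This ND group had the lowest mean of the 12 groups for both genes, and this 60% HFD group had the highest for *Me1* and the second highest for *Acss2*. The log2 fold changes were 2.00 for *Acss2* (SE 0.38, limma adjusted p = 0.00244) and 1.93 for *Me1* (SE 0.37, limma adjusted p = 0.00251), where 12.8% of all genes were significant. Both stayed significant with the hepatocyte score as a covariate (2.21, limma adjusted p = 0.00395, and 2.27, 0.00312). Other markers also moved with these groups. The smooth muscle score, the mean log2(normalized CPM + 1) of 6 genes, was 9.07, 8.47 and 3.50 under the ND and 2.70, 2.79 and 3.77 under the 60% HFD, and the corresponding score of 9 epididymal epithelium genes was 2.34, 2.42 and 0.92 against 0.21, 0.15 and 0.09. With the epididymal score as a covariate, chosen after seeing the data, *Acss2* (1.68, limma adjusted p = 0.00645) and *Me1* (1.57, 0.00526) stayed significant, and the part of the smooth muscle score was not tested. Under the 40% HFD, *Scd1* of ligatured CCL19-KI mice (49701, 32615 and 37469 normalized CPM) lay above all 3 ND libraries (12886, 11301 and 12808). Its log2 fold change was 1.68 (SE 0.48, limma adjusted p = 0.0421), where 4.92% of all genes were significant, and it lost the call when any of 11 of the 36 libraries was left out (limma adjusted p of 0.05001 to 0.172). Leaving out the 2 libraries against their labels added *Me1* to the calls (0.93, limma adjusted p = 0.0402), where 9.55% of all genes were significant. Between the 2 HFDs in these mice, 0 members and 0% of all genes were significant by limma, and edgeR and DESeq2 called 0 members. *Acss2* and *Me1* had an unadjusted p under 0.05, as did 957 of all 17852 genes.

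In WT mice without ligature, the members called were lower under the HFDs. *Acly* was 388, 477 and 622 normalized CPM under the ND, 219, 175 and 181 under the 40% HFD, and 270, 220 and 176 under the 60% HFD. The ND libraries lay above all 6 HFD libraries, and *Acly* was significantly lower under both HFDs, with log2 fold changes of -1.34 under the 40% HFD (SE 0.31, limma adjusted p = 0.0112) and -1.15 under the 60% HFD (SE 0.31, limma adjusted p = 0.0387). *Fasn* fell under the 40% HFD from 2658, 1394 and 7229 to 310, 614 and 1221 normalized CPM (log2 fold change -2.28, SE 0.70, limma adjusted p = 0.0485). *Acss2* fell from 231, 64.0 and 183 to 51.2, 37.6 and 69.5 normalized CPM, where the groups overlapped (log2 fold change -1.43, SE 0.38, limma adjusted p = 0.0264). The call of *Fasn* was lost when any of 23 of the 36 libraries was left out (-2.37 to -1.65, limma adjusted p of 0.0502 to 0.328), and 0 members were called without the third ND library or the first 40% HFD library, where *Acly* was at -1.17 and -1.45. For *Acss2* leaving out any of 4 libraries ended the call (replicates 1 and 3 under the ND and 1 and 2 under the 40% HFD, -1.43 to -1.07, limma adjusted p of 0.0636 to 0.140), as it did for *Acly* under the 60% HFD (replicates 2 and 3 of either group, -1.16 to -0.97, 0.0906 to 0.234). Among all genes, 6.03% were significant between 40% HFD and ND in these mice, 3.41% between 60% HFD and ND, and 0% between the 2 HFDs, where 0 members were called by limma, edgeR or DESeq2. Between the 2 HFDs, 2 members and 1074 of all 17852 genes had an unadjusted p under 0.05. Without the 2 libraries against their labels, *Acly* under the 60% HFD did not pass (-1.16, limma adjusted p = 0.0612), where 2.11% of all genes were significant, and *Me1* was also lower under the 40% HFD (-1.33, 0.0173), where 8.07% were. In these mice, with the hepatocyte score as a covariate none of the 4 did (limma adjusted p of 0.521 for *Acly* under the 60% HFD, and 0.661, 0.898 and 0.727 for *Acly*, *Fasn* and *Acss2* under the 40% HFD). These 3 ND libraries held the lowest hepatocyte scores of the series, 8.54 to 10.7 being the range of the 6 HFD libraries set against them. ND and HFD scores did not overlap in these mice, so a call lost with this covariate does not tell the score apart from the diet.

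In CCL19-KI mice without ligature, *Acly* was significantly higher under the 60% HFD (123, 347 and 421 normalized CPM) than under the ND (110, 128 and 113), with a log2 fold change of 1.16 (SE 0.31, limma adjusted p = 0.0242), where 10.2% of all genes were significant. The first 60% HFD library lay within the ND range, and the third is the one labelled CCL19-KI with little *Ccl19*, without which the log2 fold change was 0.82 (limma adjusted p = 0.113, the same without both libraries against their labels, where 8.51% of all genes were significant). The call was also lost without replicate 2 under the 60% HFD or replicate 2 or 3 under the ND (limma adjusted p of 0.0622 at the lowest). *Mlxipl* was lower under the 60% HFD (5.34, 11.7 and 14.3 normalized CPM) than under the 40% HFD (24.4, 52.1 and 33.4), with no overlap (log2 fold change -1.75, SE 0.52, limma adjusted p = 0.0358, 9.53% of all genes significant). The same libraries had hepatocyte scores of 5.26, 5.99 and 1.66 under the 60% HFD and 8.06 to 10.6 under the 40% HFD, and with the score as a covariate the log2 fold change was -0.53 (limma adjusted p = 0.505). It was -1.75 with the epididymal score as a covariate (limma adjusted p = 0.108), and did not pass without replicate 2 or 3 under the 40% HFD or replicate 1 under the 60% HFD either (-1.78 to -1.37, 0.0848 to 0.170). Between 40% HFD and ND in these mice, 0 members and 0% of all genes were significant, and edgeR and DESeq2 called 0 members. An unadjusted p under 0.05 was found for 6 of the 10 members and for 1486 of all 17852 genes. In ligatured WT mice, 0 members were significant in any diet comparison, where 2.57% (60% HFD against ND), 0.207% (40% HFD against ND) and 0% (60% against 40% HFD) of all genes were. In the comparison of 60% HFD with ND, *Acaca* and *Acss2* had an unadjusted p under 0.05, as did 3328 of all 17852 genes. Neither edgeR nor DESeq2 called a member there.

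Whether diet effects differed between genotypes or ligature states was tested directly, as differences of differences. Averaged over the other factor, 0 of the 10 genes differed by limma, where 0.476% (60% HFD) and 0% (40% HFD) of all genes differed between genotypes and 0% (60% HFD) and 0.00560% (40% HFD) between ligature states. In the same order, 4, 8, 2 and 1 members had an unadjusted p under 0.05, as did 3988, 1964, 2559 and 1707 of all 17852 genes. Members called by edgeR were 2, 0, 0 and 0, and by DESeq2 3, 1, 1 and 0. These numbers of 0 did not all hold without the 2 libraries against their labels, where *Acss2* and *Me1* were called in both of the following. The effect of the 60% HFD was then more positive with than without ligature (differences of 1.74 and 1.52, limma adjusted p = 0.00545 and 0.00851, 5.17% of all genes), and the effect of the 40% HFD was more positive in CCL19-KI than in WT mice (1.68 and 1.25, 0.0142 and 0.0492, 0.523% of all genes). Within mice without ligature, a set of contrasts added after seeing the data, the effect of the 60% HFD was more positive in CCL19-KI than in WT mice for *Acly* (difference 2.31 on the log2 scale, SE 0.44, limma adjusted p = 0.00145) and *Elovl6* (2.39, SE 0.70, 0.0171), where 21.8% of all genes differed. The effect of the 40% HFD was more positive in CCL19-KI mice for *Fasn* (4.26, SE 0.98, limma adjusted p = 0.038), *Srebf1* (2.33, SE 0.64, 0.0492), *Acss2* (2.31, SE 0.54, 0.0382) and *Acly* (1.92, SE 0.44, 0.038), where 2.47% of all genes differed. The 4 calls for the 40% HFD were all lost when any of 7 libraries was left out, replicates 1 and 3 of the WT and 2 and 3 of the CCL19-KI mice fed an ND, replicate 1 of the WT and 1 and 2 of the CCL19-KI mice under the 40% HFD (limma adjusted p up to 0.195), and *Srebf1* was lost for 28 of the 36 libraries. *Elovl6* lost its call without either of the 2 libraries against their labels (2.10 and 1.96, limma adjusted p = 0.0501 and 0.0518) and without both (1.66, 0.118), where *Acly* was called and 17.7% of all genes differed. For the 40% HFD, *Me1* (2.14, limma adjusted p = 0.0133) and *Thrsp* (2.65, 0.0490) were added without both, where 7.32% differed. None of these 6 differences passed the test with the hepatocyte score as a covariate (limma adjusted p of 0.203 to 0.524). In ligatured mice, 0 members differed between genotypes by limma, edgeR or DESeq2, with 0% (60% HFD) and 0.00560% (40% HFD) of all genes significant by limma. There, 2 and 0 members and 1079 and 1317 of all 17852 genes had an unadjusted p under 0.05. Between ligature states, 0 members differed by limma in WT mice (0% of all genes for the 60% HFD and 2.45% for the 40% HFD) or in CCL19-KI mice (14.0% and 0%). For the 60% HFD, 2 members in WT and 3 in CCL19-KI mice had an unadjusted p under 0.05 (1728 and 5449 of all 17852 genes). Members called there were 0 and 2 by edgeR and 1 and 3 by DESeq2. For the 40% HFD, the numbers were 6 and 0 (3849 and 1190 of all genes), then 1 and 0, and 2 and 0. Here too the 2 libraries against their labels changed the calls. Without them, the effect of the 60% HFD in CCL19-KI mice was more positive with ligature for *Mlxipl* (2.27, limma adjusted p = 0.0488), *Acss2* (1.90, 0.00747) and *Me1* (1.76, 0.0107), where 16.4% of all genes differed, and the effect of the 40% HFD in WT mice for *Fasn* (3.49, 0.0346), *Acss2* (2.32, 0.00802) and *Me1* (1.89, 0.0157), where 7.59% differed.

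**Figure D3:**
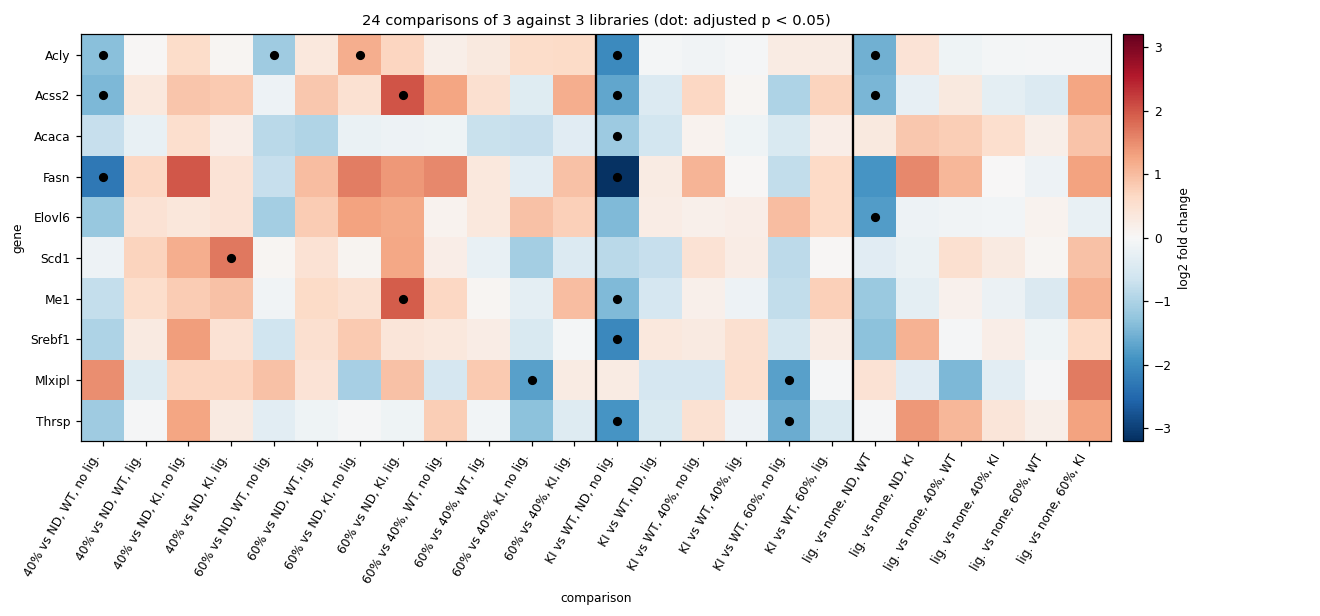
Log2 fold changes of the 10 genes (rows) in the 24 comparisons of 3 libraries with 3 (columns), coloured by the fold change, with a dot for an adjusted p under 0.05. The comparison of CCL19-KI with WT mice fed an ND without ligature holds 7 dots, all lower, and that of 60% HFD with ND in ligatured CCL19-KI mice holds 2, *Acss2* (2.00) and *Me1* (1.93).

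Between CCL19-KI and WT mice, averaged over diet and ligature, 0 of the 10 genes were significant by limma, where 0.459% of all genes were. The log2 fold change was below 0 for 9 of the 10 (median -0.31, against -0.02 over all genes). Unadjusted p-values under 0.05 were found for *Acaca*, *Acly*, *Me1* and *Thrsp* and for 3021 of all 17852 genes. Of the members, edgeR called 0 and DESeq2 called *Thrsp*. *Thrsp*, with medians of 329 normalized CPM in WT (74.1 to 856, n = 18) and 253 in CCL19-KI mice (58.3 to 428, n = 18), had the largest difference (-0.69, SE 0.23, limma adjusted p = 0.129). Without the 2 libraries against their labels, 3 genes were significantly lower in CCL19-KI mice, *Thrsp* (-0.80, limma adjusted p = 0.0391), *Me1* (-0.47, 0.0237) and *Acss2* (-0.44, 0.0335), where 7.35% of all genes were significant.

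The most members were called between genotypes in mice fed an ND without ligature, where 7 of the 10 genes were significantly lower in CCL19-KI than in WT mice and 16.6% of all genes were significant, a share close to the 16.8% found under the 60% HFD without ligature. They included all 5 genes of supply and synthesis up to palmitate. *Acly* was 110, 128 and 113 normalized CPM in CCL19-KI and 388, 477 and 622 in WT mice (log2 fold change -2.05, SE 0.31, limma adjusted p = 0.00129). *Acss2* was 48.5, 36.6 and 46.4 against 231, 64.0 and 183 (-1.66, SE 0.38, 0.00825). *Me1* was 318, 158 and 198 against 839, 262 and 842, where the groups overlapped (-1.40, SE 0.37, limma adjusted p = 0.015).

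Of the synthesis enzymes, *Fasn* was 970, 186 and 201 normalized CPM in CCL19-KI against 2658, 1394 and 7229 in WT mice (log2 fold change -3.17, SE 0.70, limma adjusted p = 0.00631). *Acaca* was 203, 198 and 222 against 262, 352 and 1075 (-1.15, SE 0.40, 0.0456). Both pairs of groups were apart, although the WT libraries differed severalfold among themselves. *Srebf1* was 102, 46.9 and 43.9 against 193, 278 and 291 normalized CPM (-2.05, SE 0.45, limma adjusted p = 0.00667), and *Thrsp* 273, 82.2 and 58.3 against 352, 290 and 684 (-1.90, SE 0.56, 0.0229). *Elovl6*, *Scd1* and *Mlxipl* did not pass the test, and *Scd1* was 17860, 12438 and 13290 against 25198, 29027 and 24357 normalized CPM, with no overlap. The same 7 genes were called without the library labelled WT that held 19.2 normalized CPM of *Ccl19*, and 19.5% of all genes were significant without the 2 libraries. The 2 CCL19-KI libraries with the lowest *Fasn*, *Srebf1* and *Thrsp* were those with hepatocyte scores over 10, and without the second of the group 1 call was left and without the third 2. *Acaca* lost its call for 17 of the 36 libraries left out in turn (-1.20 to -0.55, limma adjusted p of 0.05005 to 0.328). *Me1* also lost its call without replicate 1 or 3 of the WT mice and *Thrsp* without the third (limma adjusted p of 0.0735 or more). With the hepatocyte score as a covariate only *Acly* passed (-1.96, limma adjusted p = 0.0347). The adipocyte score, the mean log2(normalized CPM + 1) of 12 adipocyte genes, also moved with these groups, at 9.21 to 10.3 in CCL19-KI and 10.5 to 11.3 in WT mice. How much of the difference goes with the make-up of the samples cannot be told apart from the genotype in these 6 libraries.

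**Figure D4:**
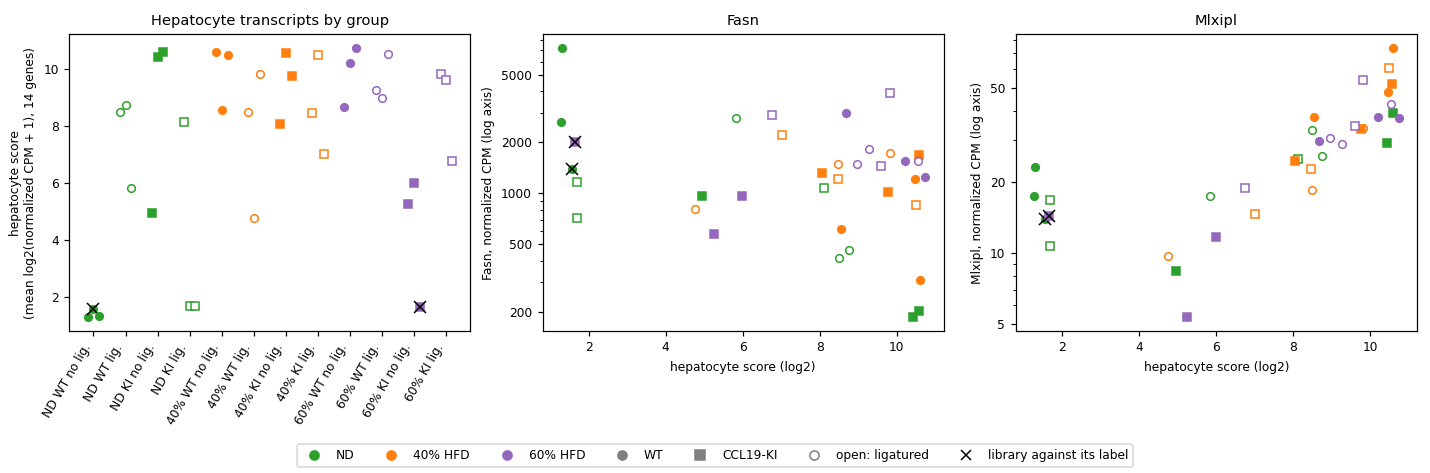
The hepatocyte score (mean log2(normalized CPM + 1) of 14 genes) by group, and *Fasn* and *Mlxipl* (normalized CPM, log axis) against that score in the 36 libraries, with crosses on the 2 libraries against their labels. WT mice fed an ND without ligature have scores of 1.28 to 1.58, and *Mlxipl* rises along the score while *Fasn* shows its lowest values, 186 and 201, in libraries with scores over 10.

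In the other groups, few of these genes differed between genotypes. In mice fed a 60% HFD without ligature, *Mlxipl* was 5.34, 11.7 and 14.3 normalized CPM in CCL19-KI and 29.8, 37.8 and 37.3 in WT mice (log2 fold change -1.74, SE 0.52, limma adjusted p = 0.025), and *Thrsp* was 69.0, 95.4 and 184 against 291, 437 and 266 (-1.59, SE 0.56, 0.0486), where 16.8% of all genes were significant. *Thrsp* lost its call when any of 25 of the 36 libraries was left out (-1.73 to -1.28, limma adjusted p of 0.0510 to 0.187). *Mlxipl* lost it for 3, replicate 2 or 3 of the WT or replicate 1 of the CCL19-KI mice (-1.69 to -1.36, 0.0765 to 0.121). Without both libraries against their labels, *Acss2* (-1.39, limma adjusted p = 0.00783) and *Me1* (-1.12, 0.0195) were lower as well, where 17.8% of all genes were significant. Neither *Mlxipl* nor *Thrsp* passed with the hepatocyte score as a covariate (-0.43 for *Mlxipl* and -2.38 for *Thrsp*, limma adjusted p = 0.645 and 0.0644). Markers of other cells moved with these groups too. In CCL19-KI and WT mice, the smooth muscle scores were 7.13, 5.66 and 6.13 against 2.55, 2.54 and 2.51, the epididymal scores 2.13, 5.61 and 3.35 against 0.04, 0.01 and 0.00, and the adipocyte scores 9.30, 9.65 and 10.0 against 10.5, 10.4 and 10.2. With the epididymal score as a covariate neither gene passed (-1.74 and -1.23, limma adjusted p = 0.0988 and 0.305), with the adipocyte score only *Mlxipl* did (-2.03, 0.00862), and the part of the smooth muscle score was not tested. The other 4 comparisons of genotype called 0 members by limma, edgeR and DESeq2, where 1.03% (ND, ligatured), 0.00560% (40% HFD, no ligature), 0.0112% (40% HFD, ligatured) and 0.0112% (60% HFD, ligatured) of all genes were significant. Among the members, the only unadjusted p under 0.05 was that of *Me1* in ligatured mice fed a 60% HFD, where 443 of all 17852 genes had one. The genotype effect under the ND differed by ligature state for *Fasn* (3.42 on the log2 scale, SE 0.98, limma adjusted p = 0.032), *Srebf1* (2.40, SE 0.64, 0.0234) and *Acly* (1.98, SE 0.44, 0.00944), being more negative without ligature, where 7.59% of all genes differed. *Fasn* lost its call for 7 and *Srebf1* for 5 of the 36 libraries left out in turn (limma adjusted p of 0.0514 to 0.108). *Acss2* (1.77, limma adjusted p = 0.0181) and *Me1* (1.43, 0.0413) were added when the 2 libraries against their labels were left out, where 7.99% of all genes differed. None of the 3 passed with the hepatocyte score as a covariate (limma adjusted p of 0.183 to 0.608). Under the 40% HFD 0 members and 0% of all genes differed in this way, and under the 60% HFD 0 members and 0.0112%, with 0 members called by edgeR or DESeq2. An unadjusted p under 0.05 was found for 0 and 3 members and for 681 and 3091 of all 17852 genes. Under the 60% HFD, *Acss2* (2.09, limma adjusted p = 0.0202) and *Me1* (1.89, 0.0315) were called when those 2 libraries were left out, where 1.78% of all genes differed.

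For the ligature averaged over diet and genotype, 0 of the 10 genes were significant by limma, where 0.325% of all genes were, edgeR called 0, DESeq2 called *Acaca*, and *Acaca* and *Thrsp* had an unadjusted p under 0.05. *Acaca* had a median of 257 normalized CPM without ligature (131 to 1075, n = 18) and 403 with ligature (212 to 769, n = 18), a log2 fold change of 0.60 (SE 0.16, limma adjusted p = 0.0905). *Thrsp* had medians of 269 and 324 normalized CPM and a log2 fold change of 0.71 (SE 0.23, limma adjusted p = 0.136). Both passed with the hepatocyte score as a covariate (0.64 and 0.78, limma adjusted p = 0.0341 and 0.047).

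In WT mice fed an ND, 3 genes were significantly lower with ligature, where 6.73% of all genes were significant. *Acly* was 134, 125 and 280 normalized CPM with and 388, 477 and 622 without ligature (log2 fold change -1.53, SE 0.31, limma adjusted p = 0.00661), *Elovl6* was 14.2, 17.1 and 20.9 against 39.7, 94.2 and 64.4 (-1.80, SE 0.49, 0.0307), and *Acss2* was 42.4, 40.4 and 71.9 against 231, 64.0 and 183 (-1.47, SE 0.38, 0.0236). Only *Acss2* overlapped between the groups. Without either of the first 2 ligatured libraries 0 genes were significant, and without the third 6 were. *Elovl6* also lost its call without replicate 2 or 3 of the mice without ligature, and *Acss2* without replicate 1 or 3 (limma adjusted p of 0.0685 or more). The calls were different without the 2 libraries against their labels, with 10.8% of all genes significant. *Elovl6* did not pass then (-1.50, limma adjusted p = 0.0632), and *Acly*, *Acss2*, *Me1* (-1.75, 0.00223) and *Fasn* (-2.43, 0.0352) were lower. Hepatocyte scores of the ligatured libraries were 5.84 to 8.75, and with the score as a covariate *Acly* (limma adjusted p = 0.0365) and *Elovl6* (0.0327) passed and *Acss2* did not (0.123). In the other 5 comparisons of ligature 0 members were significant by limma, where 1.37% (ND, CCL19-KI), 0% (40% HFD, WT), 0% (40% HFD, CCL19-KI), 0% (60% HFD, WT) and 5.66% (60% HFD, CCL19-KI) of all genes were. In the first of these, 4 members and 3235 of all 17852 genes had an unadjusted p under 0.05. In the next 3 there were 1, 0 and 0 members and 2675, 302 and 213 of all genes. For none of those comparisons did edgeR or DESeq2 call a member. In the last, 5 members and 4560 of all genes had an unadjusted p under 0.05, edgeR called *Mlxipl* and *Acss2*, and DESeq2 called these and *Me1*. The same 3 genes were significantly higher with ligature by limma when the 2 libraries against their labels were left out, *Mlxipl* (1.92, limma adjusted p = 0.0384), *Acss2* (1.65, 0.00457) and *Me1* (1.44, 0.0102), where 9.82% of all genes were significant.

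The same contrast of 60% HFD with ND was read in the genes around the pathway, in lists chosen by function. The counts of the main fit are to be read against the 10.2% of all genes that were higher and the 8.40% that were lower. In the list for citrate, acetyl-CoA and NADPH supply, 6 of 16 genes were significantly higher and 0 lower, with a median log2 fold change of 0.22 against 0.01 over all genes. They included *G6pdx* and *Pgd*, the oxidative enzymes of the pentose phosphate pathway (0.95, SE 0.17, limma adjusted p = 0.0008, and 0.94, SE 0.21, 0.00373), and the NADP-dependent *Idh1* (0.64, SE 0.17, 0.0133). Of 15 genes of elongation and desaturation, 3 were higher and 0 lower, with the largest change in *Scd2*, a desaturase related to *Scd1* (1.65, SE 0.32, limma adjusted p = 0.0014), whose median rose from 122 normalized CPM under the ND to 358 under the 60% HFD. *Tecr* and *Hsd17b12*, enzymes of the elongation cycle, had log2 fold changes of 0.72 and 0.65. Of 13 genes of glucose entry and glycolysis, 5 were higher and 0 lower, among them *Gpd1* (0.88), *Aldoa* (0.48) and *Pklr* (2.38, SE 0.63, limma adjusted p = 0.0111), the pyruvate kinase gene of liver and red cells, which had medians of 1.91, 30.8 and 47.8 normalized CPM under the ND, 40% HFD and 60% HFD.

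Of 18 regulators of lipogenesis, 1 was significantly higher and 2 lower under the 60% HFD. *Insig1*, a sterol-regulated gene that retains SREBP in the endoplasmic reticulum, had a log2 fold change of 1.42 (SE 0.22, limma adjusted p = 0.000249), with medians of 67.8, 142 and 242 normalized CPM under the ND, 40% HFD and 60% HFD. The kinase subunit gene *Prkaa1* (-0.29) and the deacetylase gene *Sirt1* (-0.27) were lower by small amounts. Of 7 relatives and genes of malonyl-CoA handling, *Acacb*, the mitochondrial relative of *Acaca*, was lower (-0.85, SE 0.25, limma adjusted p = 0.0219) and *Oxsm* higher (0.34). With the hepatocyte score as a covariate, the counts of higher and lower genes were 3 and 0 in the supply list, 3 and 0 in elongation, 4 and 0 in glycolysis, 1 and 2 among regulators and 0 and 1 among relatives. In the same order, they were 3 and 1, 4 and 1, 3 and 0, 1 and 2, and 0 and 1 without the 2 libraries against their labels, where 8.27% of all genes were higher and 6.72% lower. They were 2 and 0, 1 and 0, 2 and 0, 1 and 0, and 0 and 0 without the 9 libraries with a hepatocyte score over 10. Shares over all genes are not given for that fit or for the fit with the hepatocyte covariate. Markers of other cells moved in the same contrast. Of 12 adipocyte genes 2 were higher (*Lep* 1.84 and *Cd36*) and 3 lower (*Cfd* -2.72, *Retn* -0.94 and *Pparg*), and of 10 macrophage genes *Cd68* (1.12) and *Adgre1* (0.79) were higher and *Cd163* (-0.71) lower.

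Under the 40% HFD, 1 gene each was higher than under the ND in the supply, elongation, relatives and glycolysis lists, 0 among regulators, and 0 were lower in any of the 5, where 5.36% of all genes were higher and 3.85% lower. The gene of the glycolysis list was *Pklr*. With the hepatocyte score as a covariate, 1 supply gene was higher and 1 glycolysis gene lower, and 0 were significant in the other lists. Without the 2 libraries against their labels, 0 supply genes were higher, where 4.56% of all genes were higher and 3.35% lower. Between CCL19-KI and WT mice fed an ND without ligature, 8 of 16 supply genes and 6 of 13 glycolysis genes were lower, 0 and 1 were higher, and 5 of 12 adipocyte genes were lower, where 9.63% of all genes were lower and 6.92% higher. In the other lists, 2 of 15 elongation genes were higher and 2 lower, and 1 of 18 regulators was higher and 3 lower. Of 7 relatives, 0 were higher and 0 lower. With the hepatocyte score as a covariate, 0 genes of any of these lists were significantly higher or lower, a fit whose share over all genes is not given.

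How the genes varied together was measured on deviations from the group means, so that group differences did not enter. Of the 45 pairs among the 10 genes, 17 correlated with both adjusted p-values under 0.05 (Pearson and Spearman, 100000 permutations within groups, Benjamini-Hochberg over 45 pairs), and all 17 were positive. *Me1* and *Acss2* were the closest pair, with r = 0.913 and rho = 0.903 over 36 libraries (permutation p = 1e-05 for each, the smallest they can give, adjusted p = 0.00045), r = 0.874 without the 2 farthest libraries and 0.837 without the 2 libraries against their labels. *Fasn* and *Srebf1* had r = 0.758 and rho = 0.756 (permutation p = 7e-05 and 0.0002, adjusted 0.00105 and 0.00207, and r = 0.701 without the 2 farthest). Of the 36 pairs without *Mlxipl*, 16 were called, and of the 9 pairs with it 1, *Elovl6* (r = 0.568). For *Fasn* and *Mlxipl* r was -0.223. Values of a pair come from the same libraries and share their depth and composition. Pairs of other genes were not tested, so the 17 of 45 pairs have no background beside them. The number can therefore not be read as particular to the members.

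**Figure D5:**
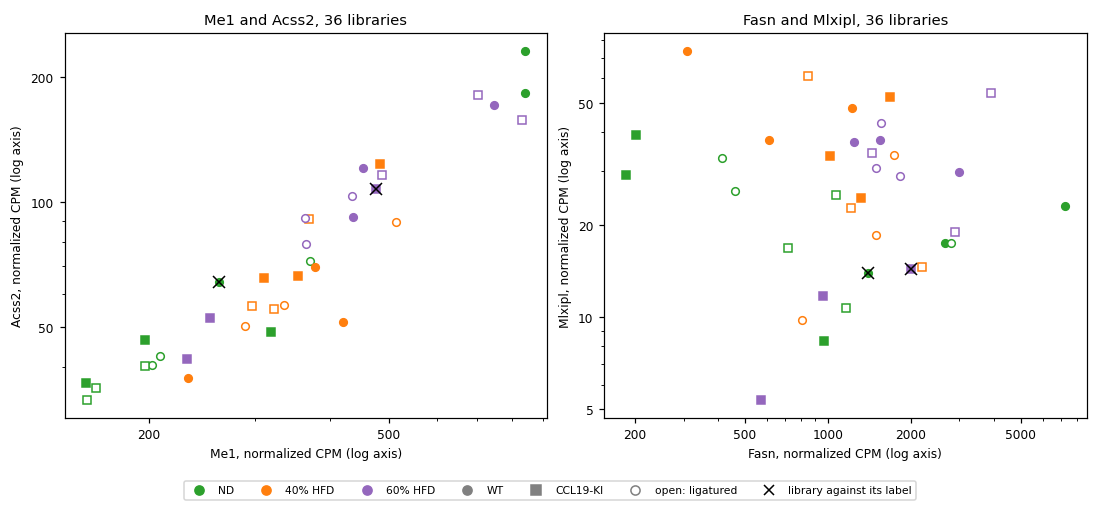
*Me1* against *Acss2* and *Fasn* against *Mlxipl* in the 36 libraries, both in normalized CPM on log axes, coloured by diet, with squares for CCL19-KI and open symbols for ligatured mice. *Me1* and *Acss2* fall along a line from the ND libraries near 158 and 33.3 to those near 839 and 231, whereas *Fasn* and *Mlxipl* form no line.

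Because *Me1* and *Acss2* moved together, the 250 bases upstream of their transcript starts are shown (RefSeq, GRCm38.p6). *Fasn* is shown beside them as a member that did not pass in the same diet contrast. Within groups it also moved with both, at r = 0.725 with *Me1* and 0.697 with *Acss2*, and both of these pairs were called. Promoter windows were matched for 9 of the 10 genes, 13 windows in all, and *Scd1* was not matched. Capitals mark the CCAAT box (CCAAT or ATTGG on the other strand) and the GC box (GGGCGG or CCGCCC), 5′ to 3′ on the strand of the gene. The windows are chr2:155517793-155518042 (plus strand) for *Acss2*, chr9:86695915-86696164 (minus strand) for *Me1* and chr11:120824548-120824797 (minus strand) for *Fasn*.
Acss2: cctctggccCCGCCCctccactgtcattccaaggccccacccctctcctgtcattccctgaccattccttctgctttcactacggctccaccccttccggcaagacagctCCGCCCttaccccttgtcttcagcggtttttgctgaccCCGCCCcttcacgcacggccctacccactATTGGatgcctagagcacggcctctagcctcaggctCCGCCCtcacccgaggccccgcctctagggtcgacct
Me1: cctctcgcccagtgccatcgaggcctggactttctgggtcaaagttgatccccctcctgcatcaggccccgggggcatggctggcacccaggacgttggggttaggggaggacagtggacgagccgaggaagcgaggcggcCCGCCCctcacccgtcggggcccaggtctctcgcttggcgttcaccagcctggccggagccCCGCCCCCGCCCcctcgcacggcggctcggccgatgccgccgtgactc
Fasn: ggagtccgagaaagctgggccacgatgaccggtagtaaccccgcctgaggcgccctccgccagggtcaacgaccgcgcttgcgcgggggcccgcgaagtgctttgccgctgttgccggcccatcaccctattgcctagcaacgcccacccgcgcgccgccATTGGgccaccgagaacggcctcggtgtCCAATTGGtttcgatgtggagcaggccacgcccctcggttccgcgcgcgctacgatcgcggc
*Acss2* holds 4 GC boxes and 1 CCAAT box, this window of *Me1* 3 GC boxes and 0 CCAAT boxes, and *Fasn* 3 CCAAT boxes and 0 GC boxes, counted on both strands with overlapping matches kept. *Me1* has another window, chr9:86687278-86687527 (minus strand, not shown), with 0 GC boxes and 1 CCAAT box. The likeness of *Acss2* and *Me1* in GC boxes thus depends on the window shown. Of 32851 windows of the same length, 32.7% hold a GC box and 8.47% hold 3 or more, and 33.8% hold a CCAAT box and 2.79% hold 3 or more. Among the 13 member windows, 6 hold a GC box and 7 a CCAAT box. The E-box CACGTG and the core of the sterol regulatory element TCACNCCAC are found in 6.02% and 1.05% of all windows and in 1 member window each, both of *Mlxipl*. These are matches of letters in a short window, and binding was not measured.

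Finally, each gene was regressed on the marker scores within groups. Per unit of the hepatocyte score, *Mlxipl* was 0.24 higher on the log2 scale (SE 0.04, limma adjusted p = 0.000434), and it was the only member of 10 with a significant slope, where 13.6% of all genes had one. The slope of *Fasn* was -0.17 (SE 0.08, limma adjusted p = 0.141). Per unit of the adipocyte score, 5 genes were higher, *Fasn* (1.22, SE 0.30, limma adjusted p = 0.00576), *Thrsp* (1.07, SE 0.23, 0.00156), *Scd1* (0.91, SE 0.17, 0.000504), *Srebf1* (0.87, SE 0.19, 0.00173) and *Acaca* (0.78, SE 0.16, 0.00105), where 21.5% of all genes had a significant slope. *Me1* (0.38, limma adjusted p = 0.163) and *Acss2* (0.38, 0.192), the genes that were higher under the 60% HFD, did not have one, and neither did *Acly*, *Elovl6* or *Mlxipl*. Epididymal epithelium genes, from the organ next to this fat pad, were also present in some libraries, with a score of 8.47 in the library labelled WT, ND without ligature 2, which had the lowest *Me1* and *Acss2* of its group. This library is 1 of the 2 against their labels. In CCL19-KI mice without ligature under the 60% HFD, replicate 1 had the lowest epididymal score of its group (2.13) and also the lowest *Me1* (232) and *Acss2* (41.8). Per unit of that score, a covariate chosen after seeing the data, *Me1* had a slope of -0.20 (SE 0.05, limma adjusted p = 0.0134) and *Acss2* of -0.19 (SE 0.05, 0.0402). The share of all genes with such a slope is not given, and no slope without the 2 libraries against their labels was fitted.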

How the data were processed

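RNA from eWAT of 36 mice was sequenced as rRNA-depleted, directional libraries. The authors trimmed reads with Trimmomatic 0.38, aligned them to transcripts with Bowtie2 within RSEM 1.3.0 and normalized the counts with edgeR. The build is mm10 in the study's methods and GRCm39 in the submitters' processing notes, and gene-level values do not settle which was used. The signal values deposited by the authors are edgeR-normalized CPM. In each library 100% of values were whole multiples of 1 read (tolerance 0.01), so reads were recovered. Depth was 11962228 to 21581595 reads, and limits from counts cover counting error only. Groups follow the labels. Ligature was taken from the labels, since the series text names it for every group.

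Tests were run on log2(normalized CPM + 1), a scale on which changes of low genes are understated. The 17852 genes that reached 1 normalized CPM in 3 or more of the 36 libraries were fitted with limma 3.58.1 (12 group means, eBayes with trend) in R 4.3.3. Genes were called at a Benjamini-Hochberg adjusted p under 0.05, with the adjustment over the whole table. P-values measure the spread between separate mice as labelled. The edgeR 4.0.16 quasi-likelihood test and DESeq2 1.42.0 were alternatives on the recovered reads. Their shares over all genes are not given, so member counts by edgeR and DESeq2 have no background beside them. Also tried were 0.1 and 5 as pseudocount, leaving the filter out, a mean of at least 5, quantile normalization, the replicate number as a block, marker scores as covariates, sample quality weights, a fit of 18 libraries, the study's rule (p up to 0.05 with a ratio from 1.5 upward or 0.67 downward) and leaving out each library. Leaving out the 2 libraries against their labels or the 9 with a hepatocyte score over 10, the epididymal score, and the score combined with the 2 libraries left out were chosen after seeing the data, as were the differences of differences within 1 state. Where the scores of the groups compared do not overlap, a call lost with the score as a covariate does not tell the score apart from the groups. The code was tested on simulated reads.

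The members and gene lists were chosen with earlier results of these data known. The text names all 10 members, up to 3 significant genes per list with the largest change between 60% HFD and ND (further ones, *Cd36* and *Pparg*, were named after their values were seen), *Ccl19* and the 10 genes most like the members. Lengths are exon unions of GENCODE M21 on GRCm38. Pathway and cell type lists not named in the report were counted in the same way.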

Additional observations from a re-analysis of the deposited data

Results flagged for a closer look

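The difference between CCL19-KI and WT mice in the effect of diet, without ligature, passed the test of the difference itself for 5 genes. For 60% HFD against ND it was 2.31 on the log2 scale for *Acly* and 2.39 for *Elovl6*, and for 40% HFD against ND it was 4.26 for *Fasn*, 2.33 for *Srebf1*, 2.31 for *Acss2* and 1.92 for *Acly* (limma, adjusted p of 0.00145 to 0.0492). The effect of genotype under an ND differed between ligatured mice and those without ligature by 3.42 for *Fasn*, 2.40 for *Srebf1* and 1.98 for *Acly* (limma adjusted p = 0.032, 0.0234 and 0.00944). All 9 differences include the WT and CCL19-KI mice fed an ND without ligature, with hepatocyte scores of 1.28 to 1.58 and 4.95 to 10.6. None of the 9 passed with the hepatocyte score as a covariate (limma adjusted p of 0.183 to 0.608), and without the 2 libraries against their labels *Elovl6* did not pass either (1.66, limma adjusted p = 0.118). Left out in turn, 28 of the 36 libraries ended the call of *Srebf1* for the 40% HFD, 8 those of *Fasn* and *Acss2* and 7 that of *Acly*, and 7 of them ended all 4 (limma adjusted p of 0.0504 to 0.195). For the genotype effect, 7 ended the call of *Fasn* and 5 that of *Srebf1*. For *Acly* under the 60% HFD and in the genotype effect, 0 of the 36 did. The comparisons share these libraries.

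*Gm2564*, a predicted gene outside the 10 members, was 41.9 normalized CPM in the library labelled WT, ND without ligature 2, and at most 0.16 in the other 17 libraries labelled WT. It was 0 in the library labelled CCL19-KI, 60% HFD without ligature 3, and 11.6 to 108 in the other 17 labelled CCL19-KI. The 2 libraries are those whose *Ccl19* also went against their labels.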

How the results depend on the processing

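The same-numbered libraries of different groups were not paired: 73 of 198 pairs correlated above 0.1 in their deviations from the group means (-0.66 to 0.71) and 10 of 36 libraries correlated best with their own number. With the replicate block, 3 members instead of 2 were called for 60% HFD against ND (*Acaca* added), 1 instead of 0 for diet by genotype and 6 instead of 3 over the 6 ligature comparisons.

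Numbers of members called by the main test were 2 (60% HFD against ND), 1 (40% HFD against ND), 0 (60% against 40% HFD), 0 (CCL19-KI against WT), 0 (ligature), 0 (diet by genotype), 0 (diet by ligature), 9 (12 diet comparisons), 9 (6 of genotype) and 3 (6 of ligature). Leaving out each library gave, in this order, 2 to 4, 0 to 1, 0 to 2, 0 to 0, 0 to 1, 0 to 3, 0 to 2, 5 to 14, 2 to 11 and 0 to 9. Counts that moved by over 1.5 times are given next. With DESeq2 they were 5 (60% HFD against ND), 1 (60% against 40% HFD), 1 (genotype), 1 (ligature), 4 (diet by genotype), 1 (diet by ligature), 14 (12 diet) and 7 (6 ligature), and with edgeR 2 (diet by genotype) and 6 (6 ligature). Sample quality weights, whose fit gave a convergence warning, raised them to 8, 2, 3, 5, 4, 14, 6, 47, 16 and 15 in the order above. The hepatocyte covariate gave 0 (40% HFD against ND), 2 (ligature), 3 (12 diet) and 1 (6 genotype), and without the 9 libraries with a hepatocyte score over 10 there were 0 (60% HFD against ND), 0 (40% HFD against ND), 2 (12 diet) and 0 (6 genotype). Without the 2 libraries against their labels there were 3 (genotype), 2 (diet by genotype), 2 (diet by ligature) and 7 (6 ligature), and with the hepatocyte covariate as well 0 (40% HFD against ND), 4 (genotype), 2 (ligature), 1 (diet by genotype), 3 (diet by ligature), 4 (12 diet) and 8 (6 ligature). The adipocyte covariate gave 5 (60% HFD against ND), 1 (60% against 40% HFD), 2 (6 genotype) and 7 (6 ligature), and the epididymal covariate 0 (40% HFD against ND), 1 (60% against 40% HFD) and 1 (diet by genotype). The study's rule gave 2 (40% HFD against ND), 1, 1 and 2 (60% against 40% HFD, genotype, ligature), 12 (diet by genotype), 3 (diet by ligature), 37 (12 diet) and 16 (6 ligature). A fit of 18 libraries gave 5 (12 diet) and 4 (6 genotype). Diet by genotype was 1 with a pseudocount of 0.1, a mean of at least 5 or quantile normalization, which also gave 5 (6 ligature), and no filter gave 0 (40% HFD against ND). Shares of all genes called are given above for the main fit and without the 2 libraries against their labels, and not for the other alternatives. A higher count under one of those can therefore not be read as particular to the members. The causes were not tested.

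No log2 fold change called by the main test, in any comparison of diet, genotype or ligature or their differences, changed sign under the alternatives that were fitted. Reversals were listed for the averaged comparisons with the ND. For 60% HFD against ND, *Mlxipl* reversed to -0.33 (hepatocyte covariate) and -0.68 (also without the 2 libraries), and *Thrsp* to 0.22, 0.0497 and, with quality weights, 0.0577 (-0.28 to 0.0010 leaving out each library). For 40% HFD against ND, *Mlxipl* reversed to -0.22 and -0.45 and *Acaca* to 0.22 and 0.11 under the same pair of settings, and *Acaca* to 0.15 without scores over 10 (-0.16 to 0.0904 leaving out each library). *Elovl6* reversed to -0.28 and -0.37 under that pair, -0.0001 (pseudocount 5), -0.0540 (quantile), -0.14 (quality weights) and -0.0949 (scores over 10 left out), with -0.0808 to 0.0901 leaving out each library. *Fasn* reversed to -0.0096 (quantile), -0.0166 (edgeR), -0.0300 (DESeq2) and -0.15 (scores over 10 left out), *Acss2* to -0.0354 (scores over 10 left out) and -0.0748 (epididymal covariate), and *Thrsp* to -0.0942 (quantile), -0.0670 (adipocyte covariate), -0.11 (scores over 10 left out) and -0.0283 (epididymal covariate), with -0.0459 to 0.26 leaving out each library. All 10 members had enough reads that the spread between mice, not depth, set the precision.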

Other observations

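The genes outside the list whose pattern over the 12 group means was most like that of the 10 members (Pearson correlation with the mean of the scaled members, given as a description) were *Slc39a1*, encoding a zinc transporter (r = 0.977), *Cant1* (0.967), *Dgat2*, encoding an enzyme of triglyceride synthesis (0.967), *Parp3* (0.961), *Extl3* (0.96), *Rab10*, encoding a GTPase of vesicle traffic (0.96), *Ehd2* (0.958), *Tenm4* (0.956), *Tcaf1* (0.952) and *Sh3tc1* (0.951).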
